A study of Mus musculus with 6 samples.

Results

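The transcripts of 10 macrophage marker genes were followed in mouse prostate tissue under hormone treatment. The genes were Mrc1, Adgre1, Csf1r, Cd68, Cd163, Mertk, C1qa, C1qb, C1qc and Cd14. They were picked by gene symbol from a deposited table of 34745 genes, each symbol matched 1 row, and all 10 passed the filter on low counts that left 15580 genes for testing. In the study, C57BL/6 mice aged 6 to 8 weeks at the start spent 12 weeks with 1 slow-release pellet at a time under the skin, replaced monthly, that held both testosterone and oestradiol (T + E2 group, 3 mice), as a model of benign prostatic hyperplasia, the non-cancerous growth of the prostate. Mice of the CON group (3 mice) had a skin incision that was closed again, with no hormone. RNA was read from prostate tissue of each mouse, so that more macrophages and more RNA of a gene per macrophage could not be told apart. The paper does not say which lobes were taken for the RNA. The 6 libraries held 14816146 to 16555549 counted reads, and the 10 genes together took 0.0338% to 0.0566% of them.

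Macrophages are resident phagocytes that depend on signals through the receptor Csf1r, and most tissues hold several kinds of them. Resident macrophages of connective tissue and vessel walls commonly carry the mannose receptor Mrc1 and the haemoglobin scavenger Cd163, and they are a main source of complement C1q, which marks immune complexes and dying cells. Mertk is a receptor tyrosine kinase through which phagocytes take up apoptotic cells after bridging proteins have bound to them, Cd14 hands bacterial lipopolysaccharide to its receptor, and Adgre1 (F4/80) and Cd68 are surface and lysosomal proteins used to stain macrophages. None of these genes is strictly limited to macrophages, and Mertk in particular is also made by other cell types.

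The 10 markers did not move as 1 block. Of the 10, 6 were upregulated in the T + E2 group, 1 was downregulated and 3 did not pass the test (edgeR, adjusted p < 0.05 over all tested genes). The upregulated genes were Cd163, Mrc1, C1qb, Cd14, C1qa and C1qc, and the downregulated gene was Mertk. Over all tested genes, 10.4% were called higher and 9.25% lower in the T + E2 group. The median log2 fold change of the 10 was 0.60, and that of all tested genes was 0.00. Only Cd163 and Mrc1 also passed the study's fold threshold of an absolute log2 fold change over 1, which 4.27% of tested genes passed upward and 3.38% downward. In all 7 called markers the values of the groups did not overlap, a pattern that 20% of tested genes showed with the T + E2 group higher and 20.7% with it lower. The summed level of the 10 genes was 403, 330 and 344 CPM (read counts scaled to the size of each library) in the CON mice and 402, 570 and 437 CPM in the T + E2 mice. This sum overlapped between the groups, and it sets genes that rose against Mertk, which fell.

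**Figure D1:**
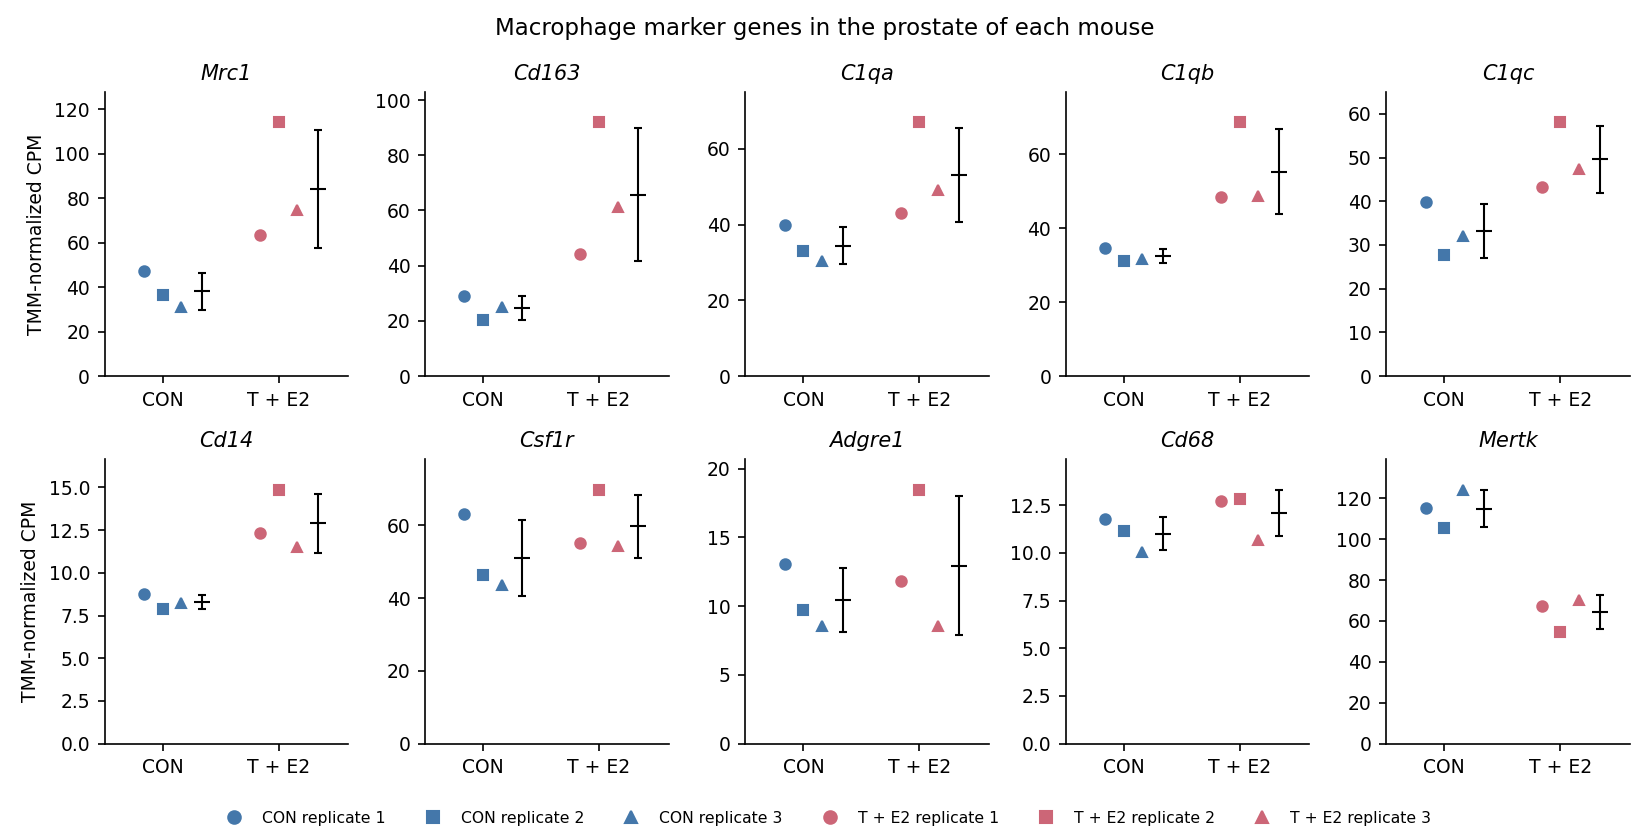
Level of each of the 10 markers in each mouse, in CPM after trimmed mean (TMM) scaling, with a separate axis from 0 for each gene. Symbols stand for mice and the black bars for the mean ± SD of 3 mice. In the first 6 panels every T + E2 mouse lies above every CON mouse, in the Csf1r, Adgre1 and Cd68 panels the groups overlap, and in the Mertk panel every T + E2 mouse lies below every CON mouse.

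Cd163, which takes up haemoglobin bound to haptoglobin, had the largest fold change of the 10. Its level was 28.9, 20.4 and 25.0 CPM in the CON mice and 44.1, 91.9 and 61.3 CPM in the T + E2 mice. The lowest T + E2 mouse was thus above the highest CON mouse, but the T + E2 mice themselves spread widely. The means were 24.7 ± 4.26 CPM in the CON group and 65.8 ± 24.2 CPM in the T + E2 group (SD, n = 3 each), a 2.66-fold rise with a 95% interval of 1.76 to 4.02 (log2 fold change 1.41, SE 0.26, adjusted p = 0.00758). Mrc1, the mannose receptor, followed the same order of mice within the T + E2 group. It stood at 47.4, 36.5 and 31.0 CPM in the CON mice and at 63.6, 114 and 74.7 CPM in the T + E2 mice. The rise was 2.20-fold with an interval of 1.51 to 3.21 (log2 fold change 1.14, SE 0.24, adjusted p = 0.0135). Replicate 2 was the highest T + E2 mouse for both genes. Without CON replicate 3 the adjusted p of Mrc1 was 0.0513, whereas Cd163 passed without any 1 mouse.

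The 3 genes of the C1q molecule, whose chains assemble in equal numbers into 1 protein, all rose, by 1.49-fold to 1.71-fold. C1qb was at 34.6, 31.1 and 31.6 CPM in the CON mice and at 48.6, 68.6 and 48.7 CPM in the T + E2 mice, a 1.71-fold rise with an interval of 1.35 to 2.16 (log2 fold change 0.77, SE 0.15, adjusted p = 0.00914). C1qa was at 39.9, 33.0 and 30.4 CPM in the CON mice and at 43.0, 67.0 and 49.2 CPM in the T + E2 mice, a 1.54-fold rise with an interval of 1.16 to 2.05 (SE of log2 0.18, adjusted p = 0.0428). C1qc was at 39.9, 27.8 and 32.0 CPM in the CON mice and at 43.4, 58.0 and 47.3 CPM in the T + E2 mice, a 1.49-fold rise with an interval of 1.16 to 1.93 (SE of log2 0.16, adjusted p = 0.0392). The gap between the closest mice of the 2 groups was wide for C1qb and narrow for C1qa and C1qc. The calls of C1qa and C1qc were lost without CON replicate 2, CON replicate 3, T + E2 replicate 2 or T + E2 replicate 3 (highest adjusted p 0.130 and 0.121), and that of C1qb was kept without any 1 mouse. The genes lie side by side on the minus strand of chromosome 4 (GRCm38), C1qb at 136880129-136886187, C1qc at 136889804-136893065 and C1qa at 136895917-136898803. Their ratios were taken on the per-length scale (FPKM), which depends on the gene length used. In the GENCODE annotation the exon bases number 1040 for C1qa and 1931 for C1qc, whereas the CPM of these genes were similar in each mouse. C1qb over C1qa was 0.829, 0.901 and 0.993 for the CON mice, against 1.08, 0.979 and 0.947 for the T + E2 mice, and C1qc over C1qa ranged from 0.408 to 0.510 for the CON mice and from 0.419 to 0.489 for the T + E2 mice, so both ratios overlapped between the groups.

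Cd14, the co-receptor for lipopolysaccharide, had a low level with a small spread. It was at 8.74, 7.89 and 8.24 CPM in the CON mice and at 12.3, 14.9 and 11.5 CPM in the T + E2 mice. The rise was 1.56-fold with an interval of 1.24 to 1.96 (log2 fold change 0.64, SE 0.15, adjusted p = 0.0191). This call was lost without CON replicate 2, CON replicate 3 or T + E2 replicate 2, with adjusted p = 0.0564, 0.0596 and 0.0592.

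Csf1r, Adgre1 and Cd68, the genes most often used to count macrophages, did not pass the test. Csf1r, the receptor for the growth factors Csf1 and Il34, was at 63.1, 46.4 and 43.7 CPM in the CON mice and at 55.3, 69.7 and 54.3 CPM in the T + E2 mice. The highest CON mouse was above 2 of the 3 T + E2 mice, and the fold of 1.17 had an interval of 0.901 to 1.52 (adjusted p = 0.360). Adgre1 was at 13.1, 9.73 and 8.55 CPM in the CON mice and at 11.8, 18.4 and 8.54 CPM in the T + E2 mice, with the highest and the lowest value of all 6 mice in the T + E2 group. Its fold of 1.24 had an interval of 0.787 to 1.96 (adjusted p = 0.475), and without T + E2 replicate 2 its log2 fold change was -0.03. Cd68 was at 11.8, 11.2 and 10.1 CPM in the CON mice and at 12.7, 12.9 and 10.7 CPM in the T + E2 mice, with a fold of 1.10 and an interval of 0.883 to 1.37 (adjusted p = 0.521). These intervals leave room for a rise of up to 1.52-fold for Csf1r, 1.96-fold for Adgre1 and 1.37-fold for Cd68. A total of 873 exon bases of Csf1r are shared with Hmgxb3 on the opposite strand. Whether the counting used strand is not given in the sources used here. Whether this overlap raised or lowered the Csf1r counts is thus not known, and the ratios and correlations with Csf1r below rest on these counts. No other marker shared exon bases with a neighbouring gene in the annotation.

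Mertk went the other way. It was at 115, 106 and 124 CPM in the CON mice and at 67.3, 54.7 and 70.4 CPM in the T + E2 mice. Each T + E2 mouse was far below each CON mouse, and the spread within the groups was small (115 ± 9.10 against 64.2 ± 8.30 CPM, SD, n = 3 each). The T + E2 level was 0.558 of the CON level with an interval of 0.460 to 0.677 (log2 fold change -0.84, SE 0.12, adjusted p = 0.00261), which is the lowest adjusted p among the 10 genes. The call was kept without any 1 mouse, with log2 fold changes from -0.91 to -0.74. The change did not reach the study's fold threshold. T + E2 replicate 2, which was highest for 9 of the 10 genes within its group, was the lowest for Mertk.

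**Figure D2:**
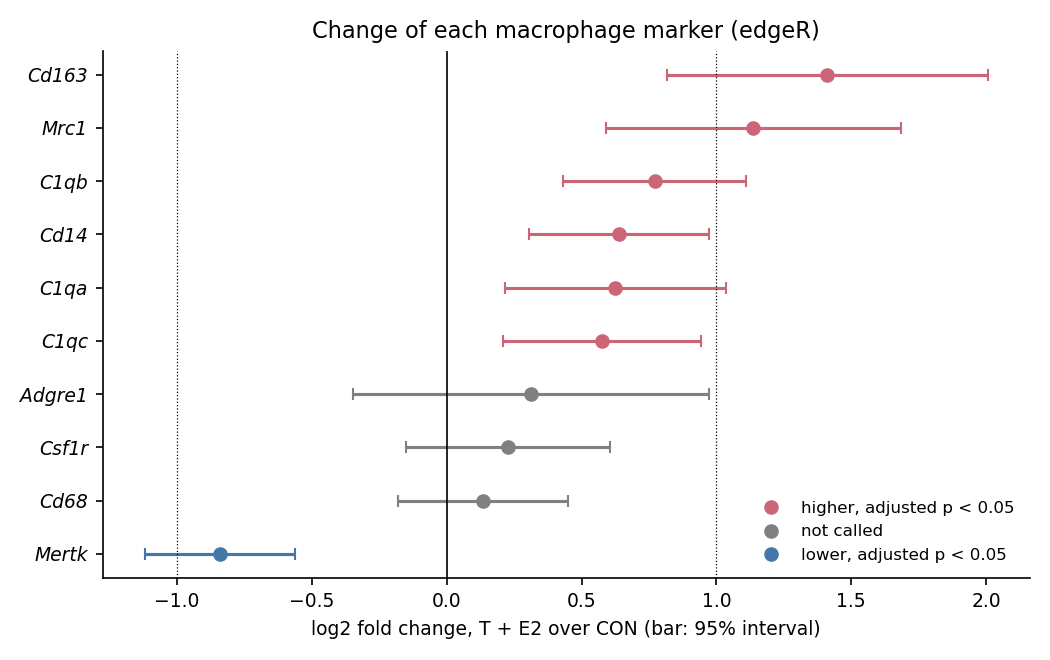
Log2 fold change of each marker, T + E2 over CON, from edgeR with its 95% interval as a bar. Dotted lines mark the study's fold threshold of 1 in either direction. Cd163 (1.41) and Mrc1 (1.14) lie above the upper line, Mertk (-0.84) lies between the lower line and 0, and the intervals of Csf1r, Adgre1 and Cd68 span 0.

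Per transcript length the order of the markers also shifted. In the CON group C1qa (33.5 ± 5.12 FPKM) and C1qb (30.1 ± 1.94 FPKM) were the highest and did not differ beyond their spread, and Mertk came next at 19.0 ± 1.21 FPKM, followed by C1qc at 15.7 ± 2.94 FPKM. Csf1r was at 8.83 ± 1.89 FPKM. Cd68, Cd14 and Mrc1 were level at 5.39 ± 0.507, 5.34 ± 0.288 and 5.21 ± 1.19 FPKM, and Cd163 (3.60 ± 0.615 FPKM) and Adgre1 (2.93 ± 0.682 FPKM) were the lowest. In the T + E2 group C1qa (50.4 ± 12.4 FPKM), C1qb (50.2 ± 10.8 FPKM) and C1qc (22.8 ± 3.78 FPKM) led. Mrc1 at 11.2 ± 3.64, Mertk at 10.4 ± 1.39, Csf1r at 10.1 ± 1.52 and Cd163 at 9.36 ± 3.55 FPKM then lay within each other's spread. Mrc1 moved from the eighth to the fourth place and Cd163 from the ninth to the seventh, and Adgre1 stayed the lowest.

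Relative to Csf1r in the same library, where library scaling cancels, the ratios of Cd163, Mertk and Mrc1 differed most between the groups. Log2 ratios of Cd163 to Csf1r counts were -1.13, -1.19 and -0.81 for the CON mice, against -0.33, 0.40 and 0.18 for the T + E2 mice. For Mrc1 they were -0.41, -0.35 and -0.50 for the CON mice, against 0.20, 0.71 and 0.46 for the T + E2 mice. Both ratios were higher in every T + E2 mouse than in any CON mouse. The ratio rose 2.18-fold for Cd163, 1.84-fold for Mrc1, 1.43-fold for C1qb, 1.31-fold for Cd14, 1.29-fold for C1qa and 1.27-fold for C1qc, with no overlap between the groups. For Mertk the log2 ratios were 0.87, 1.19 and 1.5 for the CON mice, against 0.28, -0.35 and 0.38 for the T + E2 mice, a fall to 0.472 of the CON ratio, also with no overlap. Each of these 7 ratios had p = 0.1 in an exact two-sided permutation test, the smallest p that 3 against 3 mice can give (0.129 after adjustment over the 9 ratios), so none could pass the threshold. The ratios of Adgre1 and Cd68 differed by 0.02 and -0.10 on the log2 scale (exact permutation p = 0.8 and 0.6).

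**Figure D3:**
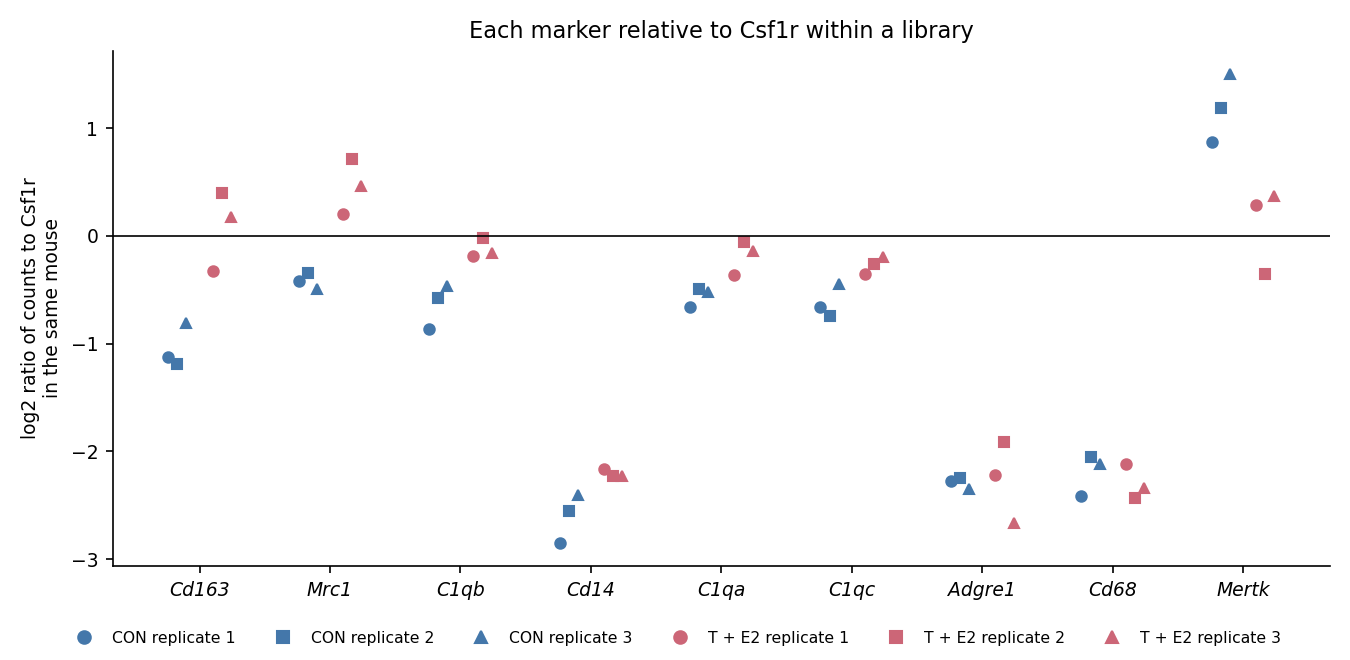
Log2 ratio of each marker's counts to those of Csf1r in the same mouse, with the line at 0 marking equal counts. Symbols stand for mice. T + E2 mice lie above CON mice for Cd163, Mrc1, C1qb, Cd14, C1qa and C1qc, overlap with them for Adgre1 and Cd68, and lie below them for Mertk.

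Over the 6 mice, the genes with the profile most like that of Csf1r were taken by Pearson's r of log2 CPM among 15579 other genes. They were Gm43300 (r = 0.994), Ptprc (0.989), Ccr1 (0.988), Fam214a (0.984) and Ehbp1 (0.984). Ptprc encodes CD45, carried by all white blood cells, and Ccr1 a chemokine receptor of myeloid cells. Among the other 9 markers Adgre1 (0.872), C1qa (0.857), C1qc (0.845) and Mrc1 (0.820) were the nearest. They ranked only 365, 441, 502 and 664 among the 15579 genes, so that many other genes were closer to Csf1r. Cd68 (0.775), C1qb (0.737), Cd163 (0.723) and Cd14 (0.708) came later, and Mertk was negative (-0.619). These values describe 6 libraries in 2 groups. Ptprc itself was at 13.2 ± 5.73 CPM in the CON group and 18.4 ± 5.19 CPM in the T + E2 group and did not pass the test (adjusted p = 0.301).

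Bases before the RefSeq gene start are shown for 4 markers, Mrc1 and Cd163 as the most upregulated, C1qb for its gene cluster and Mertk as the downregulated gene. They were read from the RefSeq promoter table (GRCm38.p6), whose windows were used for 6 of the 10 genes. Bases that lie inside the gene in the GENCODE annotation were cut off, which shortened the windows of Mrc1 and C1qc. Capitals mark GAGGAA on either strand, the core that the myeloid factor PU.1 (Spi1) prefers. The windows are chr2:14229164-14229391 (plus strand) for Mrc1, chr6:124304401-124304650 (plus) for Cd163, chr4:136886201-136886450 (minus) for C1qb and chr2:128698665-128698914 (plus) for Mertk.
Mrc1: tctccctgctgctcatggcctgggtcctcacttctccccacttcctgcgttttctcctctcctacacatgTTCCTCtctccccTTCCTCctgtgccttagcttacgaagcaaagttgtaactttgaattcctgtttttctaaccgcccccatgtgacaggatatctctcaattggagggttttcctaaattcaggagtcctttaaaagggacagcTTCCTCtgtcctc
Cd163: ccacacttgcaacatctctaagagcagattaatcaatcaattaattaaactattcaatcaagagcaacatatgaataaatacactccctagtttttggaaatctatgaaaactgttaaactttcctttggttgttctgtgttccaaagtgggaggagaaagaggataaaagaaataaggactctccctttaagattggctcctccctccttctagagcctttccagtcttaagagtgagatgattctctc
C1qb: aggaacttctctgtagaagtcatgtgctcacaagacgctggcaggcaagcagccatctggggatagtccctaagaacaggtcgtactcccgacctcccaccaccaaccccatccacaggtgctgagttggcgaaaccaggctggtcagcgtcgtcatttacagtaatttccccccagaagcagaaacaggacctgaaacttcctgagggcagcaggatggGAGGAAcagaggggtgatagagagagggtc
Mertk: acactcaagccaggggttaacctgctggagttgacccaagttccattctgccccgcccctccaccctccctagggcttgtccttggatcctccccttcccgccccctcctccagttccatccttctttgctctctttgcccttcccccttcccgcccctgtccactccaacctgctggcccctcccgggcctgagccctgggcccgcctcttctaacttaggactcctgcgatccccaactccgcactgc

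The window of Mrc1 held 3 matches to GAGGAA, that of C1qb 1, and those of Cd163 and Mertk none. In all, 4 of the 6 windows held it, of which C1qb and Cd68 had 250 bases, Mrc1 228 and C1qc 99. Of 32851 promoter windows, 23.3% held it at 250 bases, 21.4% at 228 and 9.74% at 99. The shares at 228 and 99 bases are for the bases next to each RefSeq start, whereas the cut removed those bases from Mrc1 and C1qc. AGAACA, a half-site of the androgen receptor, was present in 3 of the 6 windows (C1qc among them) against 16.1% of all at 250 bases, with 1 match each in Cd163 and C1qb. AGGTCA, a half-site of the oestrogen receptor, was present in 1 of the 6, that of C1qc, against 14% of all at 250 bases, and in none of the 4 windows shown. The search covered both strands. A match to such short letters is a description of the sequence and not a binding site.

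Of the 113 genes on 7 further lists that surround the markers, 103 were tested, 27 were upregulated and 7 downregulated. Over all tested genes 10.4% were called higher and 9.25% lower, and the counts of each list are to be read beside these shares. The lists were chosen with earlier results of these data known. The list of the Csf1r axis, with ligands, related receptors and myeloid transcription factors, held 1 called gene. Of its 13 genes 11 were tested, 1 was upregulated and none downregulated, with a median log2 fold change of 0.09. The ligand Csf1 was at 24.7 CPM in the CON group and 21.0 CPM in the T + E2 group (adjusted p = 0.200), and the second ligand Il34 at 2.88 and 1.80 CPM (adjusted p = 0.0909). Spi1, the lineage factor PU.1, was at 4.81 and 5.21 CPM (adjusted p = 0.725).

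Among 28 further macrophage genes, all tested, 7 were upregulated and 1 downregulated, and 6 of them passed the fold threshold. Their median log2 fold change was 0.49. Itgam (CD11b, an integrin of myeloid cells) was at 11.8, 4.67 and 8.36 CPM in the CON mice and 25.6, 27.4 and 26.2 CPM in the T + E2 mice (log2 fold change 1.67, adjusted p = 0.00485). Its symbol stood on 2 rows, of which the row with more counts was used. Folr2, a folate receptor of resident macrophages, rose from 11.2 to 27.4 CPM (log2 fold change 1.28, adjusted p = 0.00302), Siglec1, a sialic acid receptor, from 7.55 to 18.9 CPM (1.32, adjusted p = 0.0119) and Lgals3, a galectin also made by epithelium, from 16.2 to 36.3 CPM (1.16, adjusted p = 0.000754). The inhibitory Fc receptor Fcgr2b (adjusted p = 0.0143) and Cd53 (adjusted p = 0.0306) rose as well, and lost their calls when any 1 of 2 and any 1 of 4 mice was left out. Vsig4, a complement receptor, was called on counts of 4, 0 and 0 reads for the CON mice against 11, 24 and 10 for the T + E2 mice, and it lost its call when any 1 of 5 mice was left out. Cx3cr1, a chemokine receptor of monocytes and of some resident macrophages, fell from 6.22 to 3.48 CPM (log2 fold change -0.84, adjusted p = 0.0433), a call also lost when any 1 of 5 mice was left out. Other general macrophage genes did not pass, with Aif1 at 1.66 CPM in the CON group and 1.24 CPM in the T + E2 group (adjusted p = 0.484).

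Mertk binds apoptotic cells through the secreted proteins Gas6 and Pros1. The related receptor Tyro3 binds both, and Axl binds Gas6. Both bridging proteins rose while Mertk fell. Gas6 was at 373, 349 and 418 CPM in the CON mice and at 1560.2, 1499 and 1239.6 CPM in the T + E2 mice (log2 fold change 1.91, SE 0.13, adjusted p = 6.58e-05). Pros1 was at 20.6, 20.9 and 21.3 CPM in the CON mice and at 85.8, 103 and 74.0 CPM in the T + E2 mice (log2 fold change 2.06, SE 0.13, adjusted p = 5.25e-05). For both genes every T + E2 mouse was far above every CON mouse. Axl (117 CPM in the CON group, 129 CPM in the T + E2 group, adjusted p = 0.426) and Tyro3 (64.7 and 61.5 CPM, adjusted p = 0.729) did not pass. Mfge8, which bridges apoptotic cells to integrins, rose from 82.9 to 192 CPM (log2 fold change 1.21, adjusted p = 0.00155), and Adgrb1, a phosphatidylserine receptor, from 24.2 to 44.6 CPM (0.88, adjusted p = 0.00586). In all, 6 of the 15 tested genes of apoptotic cell uptake were upregulated and 2 downregulated (Megf10 and Elmo1), with a median log2 fold change of 0.14. Megf10, Elmo1, the uptake receptor Stab1 and the integrin chain Itgb5 each lost their call when any 1 of 3 to 5 mice was left out.

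**Figure D4:**
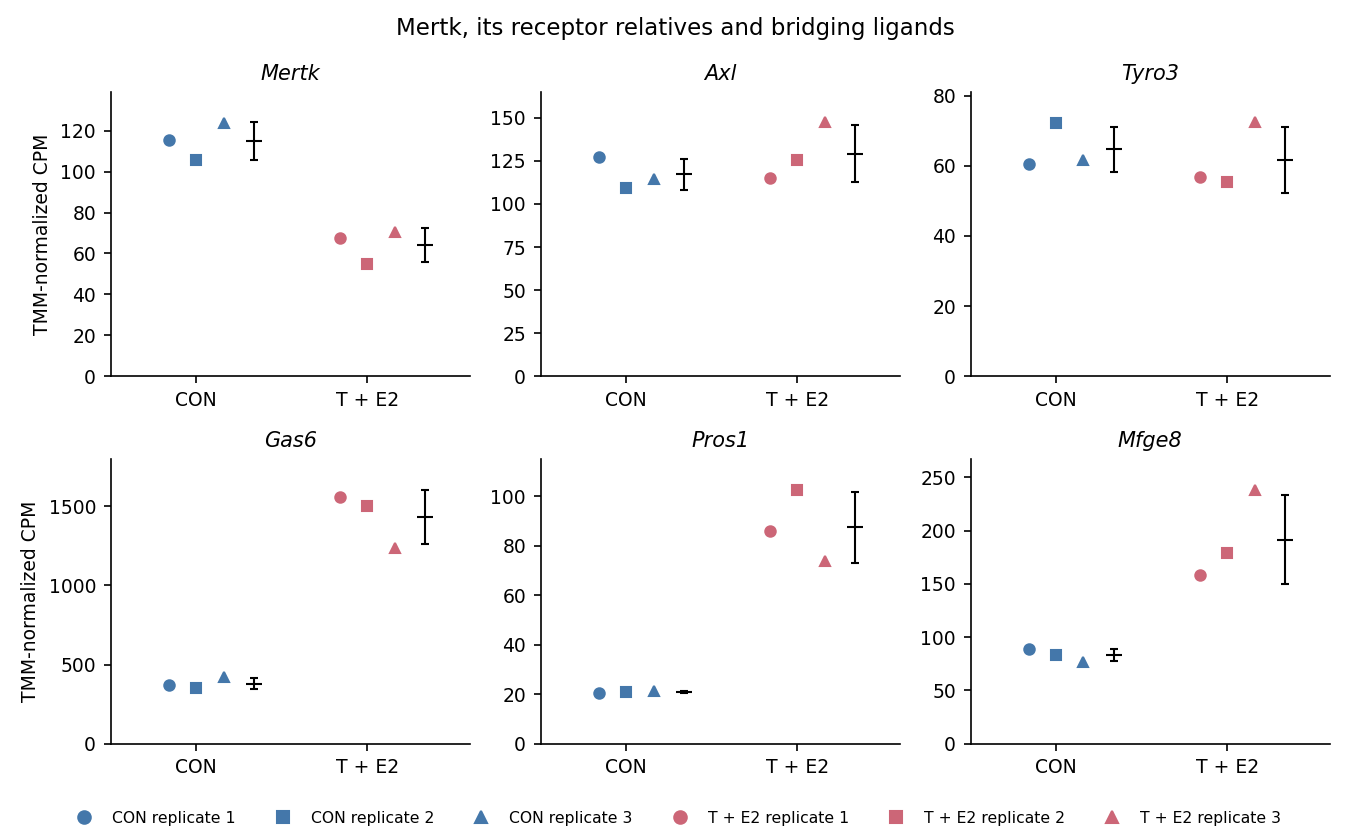
Level in each mouse of Mertk, its relatives Axl and Tyro3 and the bridging proteins Gas6, Pros1 and Mfge8, in TMM-normalized CPM, each panel from 0. Black bars are the mean ± SD of 3 mice. Mertk is lower in every T + E2 mouse, the groups overlap for Axl and Tyro3, and the 3 bridging proteins are higher in every T + E2 mouse.

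Around Cd14, 3 of 12 genes of the lipopolysaccharide receptor complex were upregulated and 1 downregulated, with a median log2 fold change of 0.31. Lbp, which delivers lipopolysaccharide to Cd14, rose from 35.6 to 97.5 CPM (log2 fold change 1.45, adjusted p = 0.00247). Tlr4, the signalling receptor, was at 3.11, 1.64 and 11.4 CPM in the CON mice and at 18.1, 23.8 and 19.4 CPM in the T + E2 mice (log2 fold change 1.92, SE 0.57, adjusted p = 0.0490). CON replicate 3 was far above the other CON mice, and without it the log2 fold change of Tlr4 was 3.10, whereas without any 1 of the other 5 mice the call was lost (highest adjusted p 0.135). Ly96, the partner that binds the lipid, was at 3.63 and 5.27 CPM (adjusted p = 0.160). Of the adaptors, Tirap rose from 28.0 to 39.6 CPM (adjusted p = 0.0224) and Myd88 fell from 34.7 to 24.5 CPM (adjusted p = 0.0248), calls that were lost when any 1 of 5 and any 1 of 2 mice was left out.

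C1q works with the proteases C1r and C1s and then cleaves C4. Of 13 C1q partners 2 were upregulated and 2 downregulated, with a median log2 fold change of 0.21. C4b rose from 65.8 to 158 CPM (log2 fold change 1.26, adjusted p = 0.00098), and Calr, a chaperone that also binds C1q at the cell surface, from 1895 to 3880 CPM (1.03, adjusted p = 0.00542). C1rb and C1s2, which are near copies of C1ra and C1s1 and may share reads with them, fell by 8.82 and 8.28 on the log2 scale. C1rb went from 1252 to 2.78 CPM (adjusted p = 2.63e-05) and C1s2 from 193 to 0.613 CPM (adjusted p = 2.01e-07). The symbol C1s2 stood on 2 rows, of which the row with more counts was used. C1ra itself was at 63.1 and 47.8 CPM (adjusted p = 0.0546) and C1s1 at 58.7 and 102 CPM (adjusted p = 0.204), and neither passed.

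Beside Cd163 and Mrc1, 5 of 16 tested scavenger receptor and haem genes were upregulated and 1 downregulated (median log2 fold change 0.15). Clec10a, a lectin of resident macrophages and dendritic cells, rose from 9.28 to 19.3 CPM (log2 fold change 1.06, adjusted p = 0.0334), with its highest value, 28.3 CPM, in T + E2 replicate 2. Hmox1, which breaks down the haem that Cd163 brings in, rose from 10.8 to 16.7 CPM (0.63, adjusted p = 0.0274). Both lost their calls when any 1 of 4 mice was left out. The lysosomal membrane genes Lamp1 (627 to 1311 CPM), Lamp2 (321 to 748 CPM) and Scarb2, which all cells use, rose with adjusted p = 0.000256, 0.000546 and 0.00132, whereas Cd68, a member of the Lamp family, did not pass. Tnfsf12, a ligand that Cd163 can bind, fell from 25.5 to 16.3 CPM (adjusted p = 0.00721). Of 14 genes used to sort macrophages by activation state, 8 were tested and 3 upregulated, namely Retnla (64.2 to 98.8 CPM, adjusted p = 0.00991), Il4ra (log2 fold change 0.86, adjusted p = 0.00487) and Tgm2 (0.52, adjusted p = 0.00563). Nos2, Il10, Chil3, Il1b, Il6 and Il12b had too few counts to be tested at this depth.

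Markers of other cells were compared in the same way. None of the 4 tested T cell markers, the 2 NK cell markers, the 2 neutrophil markers or the 6 dendritic cell markers was called, and the summed T cell level was 3.84 to 9.87 CPM in the CON mice and 5.01 to 8.95 CPM in the T + E2 mice. The B cell sum was 2.17 to 6.16 CPM in the CON mice and 6.94 to 10.2 CPM in the T + E2 mice, with no overlap. Of its 3 tested markers only Cd79b was called, and it rose (log2 fold change 2.11, adjusted p = 0.00565). Ms4a1 was at 1.82 and 3.52 CPM (adjusted p = 0.1003). Cd79a overlapped between the groups, at 1.99, 0.263 and 0.754 CPM in the CON mice and 0.899, 1.40 and 1.07 CPM in the T + E2 mice (adjusted p = 0.867). Of the 4 tested mast cell markers Kit and Mcpt4 fell, and the other 2 overlapped between the groups and did not pass. The call of Mcpt4 was lost without CON replicate 1 or T + E2 replicate 1 (highest adjusted p 0.0573). The mast cell sum was 24.6 to 35.7 CPM in the CON mice and 12.8 to 21.1 CPM in the T + E2 mice. Of the 6 endothelial markers only Lyve1, a hyaluronan receptor of lymphatic vessels that macrophages with Mrc1 and Folr2 also carry, was upregulated, from 21.6 to 57.0 CPM (log2 fold change 1.40, adjusted p = 0.00141). Prox1, which defines lymphatic endothelium, was at 2.05, 2.37 and 2.33 CPM in the CON mice and at 3.18, 2.13 and 2.67 CPM in the T + E2 mice (adjusted p = 0.522).

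Blood and neighbouring tissue differed among the libraries. All 5 red blood cell markers rose, though none of them passed without CON replicate 3, and their sum was 66.2, 56.6 and 53.9 CPM in the CON mice and 133, 420 and 136 CPM in the T + E2 mice. The highest sum was in T + E2 replicate 2, the mouse that was also highest for Cd163, Mrc1 and the C1q genes. The part of blood content in those rises was not tested. The summed seminal vesicle level was 10307 CPM in CON replicate 2 and 642 CPM in T + E2 replicate 2, against 0.629 to 4.11 CPM in the other 4 mice, and CON replicate 2 also had the highest fat sum (270 CPM against 37.2 to 76.4 CPM in the others). With both mice numbered 2 left out, Cd163 (log2 fold change 0.97, adjusted p = 0.0317), C1qb (0.56, adjusted p = 0.0385) and Mertk (-0.80, adjusted p = 0.0125) still passed, and Mrc1 (0.82, adjusted p = 0.0762), Cd14, C1qa and C1qc did not. Of the prostate epithelium markers, the secretory genes Pbsn and Tgm4 and the keratin Krt18 (adjusted p = 0.00704) fell and Epcam rose in the same mice in which Mertk fell. Of 6 stroma markers, the smooth muscle genes Acta2 (0.705 of the CON level, adjusted p = 0.0137) and Des (0.768, adjusted p = 0.0440) fell as well, calls that were lost without T + E2 replicate 2 and when any 1 of 5 mice was left out, respectively. The part of the epithelial and stromal changes in the fall of Mertk was not tested. No tested marker of fat, seminal vesicle or skeletal muscle was called.

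**Figure D5:**
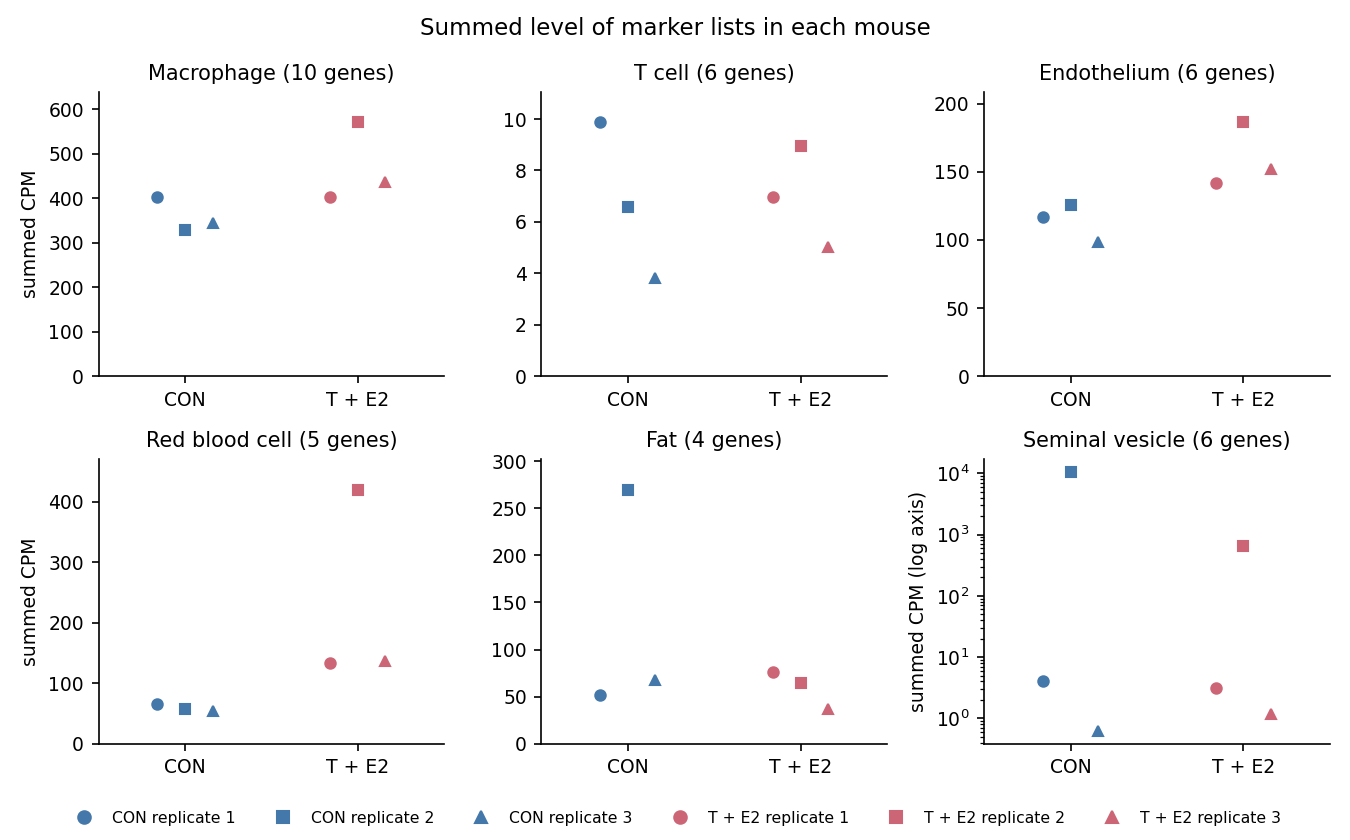
Summed CPM of 6 marker lists in each mouse, each panel from 0 except the seminal vesicle panel, which has a log axis. Symbols stand for mice. The macrophage sum and the red blood cell sum are highest in T + E2 replicate 2, the T cell sums overlap between the groups, and the fat and seminal vesicle sums are highest in CON replicate 2.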

How the data were processed

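Prostate RNA of 3 CON and 3 T + E2 mice was sequenced from paired-end TruSeq libraries. Per the labels, the authors used TopHat, Bowtie2 and HTSeq. Their versions, the genome build and the strand setting are not given in the sources used here. The deposited gene table held counts, which the authors had not normalized, and FPKM, which the authors had scaled to gene length and library size. It had 0 columns of other samples. Coordinates match GRCm38 (GENCODE M21) for 7 of the 10 genes. Those of Cd14 and Adgre1 differ slightly, and the start of Csf1r differs more, whereas its end is the same.

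Counts were tested with edgeR 4.0.16 in R 4.3.3 (quasi-likelihood test, TMM scaling, filterByExpr with minimum count 10 and minimum total 15, Benjamini-Hochberg adjustment over 15580 genes). Intervals of folds are 95% intervals from that fit. Levels are TMM-normalized CPM, in which 3 counts are 0.183 to 0.208 CPM. Ratios to Csf1r used counts + 0.5. The script was tested on simulated data. Alternatives were DESeq2 1.42.0, its size factors, total count scaling, no filter, limma 3.58.1 on log2(FPKM + 0.1) and log2(FPKM + 1), a replicate block and leaving out each mouse. Replicates are separate mice. Over all tested genes, the deviations of same-numbered mice from their group means were nearly uncorrelated between the 2 groups.

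The 10 genes and all lists were chosen with earlier results of these data known. Besides the 10, the text names 14 genes set by symbol, up to 4 called genes with the lowest adjusted p of each list, and the 5 genes most correlated with Csf1r. Other named genes (Fcgr2b, Cd53, Vsig4, Cx3cr1, Megf10, Stab1, Itgb5, Elmo1, Clec10a, Hmox1, Ms4a1, Cd79a, Prox1 and the untested activation genes) were chosen after their values were seen. The called gene of the Csf1r axis list is not reported here.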

Additional observations from a re-analysis of the deposited data

How the results depend on the processing

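Upregulated markers numbered 6 in the reported analysis, 6 with DESeq2, DESeq2 size factors or no filter, 4 (without C1qa and C1qc) with total count scaling or limma on FPKM, and 2 past the study's fold threshold, at which 0 were downregulated. Leaving out 1 mouse gave 2 to 6 upregulated and 1 downregulated marker, the lowest count without CON replicate 3, and 3 without CON replicate 2 or T + E2 replicate 2. Among the surrounding genes, leaving out 1 mouse gave 19 to 30 upregulated and 4 to 6 downregulated genes. With both mice numbered 2 left out, a choice made after seeing the data, there were 2 upregulated markers, and 17 upregulated and 3 downregulated surrounding genes. With the replicate block, the counts were 3 upregulated markers and 4 downregulated surrounding genes, and over all genes 1229 higher and 945 lower against 1620 and 1441. The markers lost under the block were C1qa, C1qc and Cd14 (adjusted p = 0.0793, 0.0920 and 0.0536). Over all tested genes, the deviations of same-numbered mice from their group means correlated at -0.05, 0.03 and 0.05. Such values cannot show whether these mice shared a dissection or a batch. Cd163, C1qb and Mertk passed in every one of these fits at adjusted p < 0.05, and Adgre1 changed sign, to -0.084 with both mice numbered 2 left out and -0.034 without T + E2 replicate 2 (-0.034 to 0.54 with 1 mouse left out). Its ratio to Csf1r ran from -0.15 to 0.22 with 1 mouse left out, and the other ratios kept their sign. With 3 mice a group, the interval of the fold was 0.787 to 1.96 for Adgre1 and 0.883 to 1.37 for Cd68, which leaves room for changes of these sizes. The cause of these shifts was not tested.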
